A study of Mus musculus with 24 samples.

Results

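The comparison described here sets fat next to a tumor against fat of mice without a tumor, both from mice on a high-fat diet (HFD). Its members are all 8 libraries whose count columns the labels place in those groups, 4 HFD peritumoral and 4 HFD no tumor, out of 24 libraries in the series. Every library is total RNA, depleted of ribosomal RNA, from flash-frozen subcutaneous fat at the 4th mammary gland, taken from C57BL/6 mice. The other 16 libraries are HFD contralateral fat (tumor-bearing mice, opposite gland) and Chow peritumoral, contralateral and no tumor fat, 4 of each, where Chow is the standard diet. The series is titled for creatine exchange between adipocytes and breast cancer cells. The tumor cells, the sex and age of the mice, and whether each library is a separate mouse are not stated in the labels or protocols, and so p-values measure the spread between libraries, which may be partly technical. Sample titles carry L for every peritumoral library and R for every no tumor and contralateral library, so whatever these letters stand for cannot be told apart from nearness to a tumor.

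Mammary fat is built of lipid-filled adipocytes among stromal progenitors, vessels, epithelial ducts and resident macrophages. On a high-fat diet the adipocytes enlarge and macrophages gather around dying ones to take up their lipid. Fat beside a growing breast tumor is known for adipocytes that lose lipid, for recruited myeloid cells and for remodelled matrix. In bulk RNA, fewer cells of a type and less RNA per cell cannot be told apart.

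The libraries held 15982962 to 18204747 counts each in HFD peritumoral fat and 14979723 to 16533437 counts each in HFD no tumor fat. The first principal component of their log2 CPM (counts scaled to a library of 1000000) held 75.5% of the variance and put every peritumoral library on one side, at -5.89, -61.4, -29.6 and -45.7 for replicates 1 to 4, against 35, 35, 37.5 and 35.1 in no tumor fat. Peritumoral replicate 1 thus lay closest to no tumor fat and replicate 2 farthest from it. Mitochondrial ribosomal RNA took 26.0 ± 1.79% of the counts in HFD peritumoral fat and 21.6 ± 0.713% in HFD no tumor fat (SD, n = 4 each; two-sided exact permutation test, p = 0.0286, the smallest that 4 against 4 libraries can give, adjusted p = 0.0429 over 3 measures). Leaving those counts and the predicted genes Gm42418 and Gm26917 out of the library sizes gave 6507 called genes, against 6455 with them.

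A set of 9 genes that were all but silent in tumor-free fat marked the peritumoral libraries. They averaged under 0.1 CPM in HFD no tumor fat and at least 5 CPM in HFD peritumoral fat, a rule set after the values were seen, so their difference is a description with no test. They were Rhox5, Hmga2, Nxf3, Tex19.1, Serpinb2, Ereg, Acod1, Raet1d and Cxcl3. Rhox5 and Tex19.1 are known as genes of the reproductive tract and germ line, and Hmga2, a chromatin protein, as one of embryonic and tumor cells. Rhox5 stood at 3.54, 41.2, 14.9 and 20.3 CPM in HFD peritumoral replicates 1 to 4, against 1 read in all over the 4 HFD no tumor libraries. Hmga2 stood at 3.71, 45.5, 20.1 and 40.1 CPM in peritumoral fat, against 3 reads over the 4 no tumor libraries. Acod1, which makes itaconate in activated macrophages, stood at 2.92, 10.9, 9.72 and 9.44 CPM in peritumoral fat, against 6 reads over the 4 no tumor libraries.

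Summed over the 9 genes the level was 37.6, 259, 91.8 and 133 CPM in HFD peritumoral replicates 1 to 4, and 0.119 to 0.734 CPM in HFD no tumor fat. HFD contralateral fat held 17.4, 4.43, 1.11 and 1.44 CPM. In the peritumoral sums replicate 2 was highest and replicate 1 lowest, the order that the first principal component and the summed cell cycle genes also followed. Single genes departed from it: Serpinb2 stood at 17.3, 89.3, 2.72 and 18.8 CPM and Cxcl3 at 2.98, 3.16, 11.6 and 4.18 CPM. Ereg and Acod1 were higher in replicate 3 than in replicate 4. The part of the source of the 9 genes in the other differences was not tested. Peritumoral replicate 2 also held the most B cell marker RNA (246 CPM in sum, against 30.9, 18.3 and 91.4 in the other peritumoral libraries and 17.9 to 46.9 in HFD no tumor fat) and the most skeletal muscle RNA (331 CPM, against 45.8 to 61.7 in the others and 52.3 to 72.8 in no tumor fat). Counts of list members are also given without peritumoral replicates 2 and 4, the libraries with the highest B cell and lymph node marker sums, and without single libraries, wherever that moves a count of at least 3 by over 1.5 times.

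**Figure D1:**
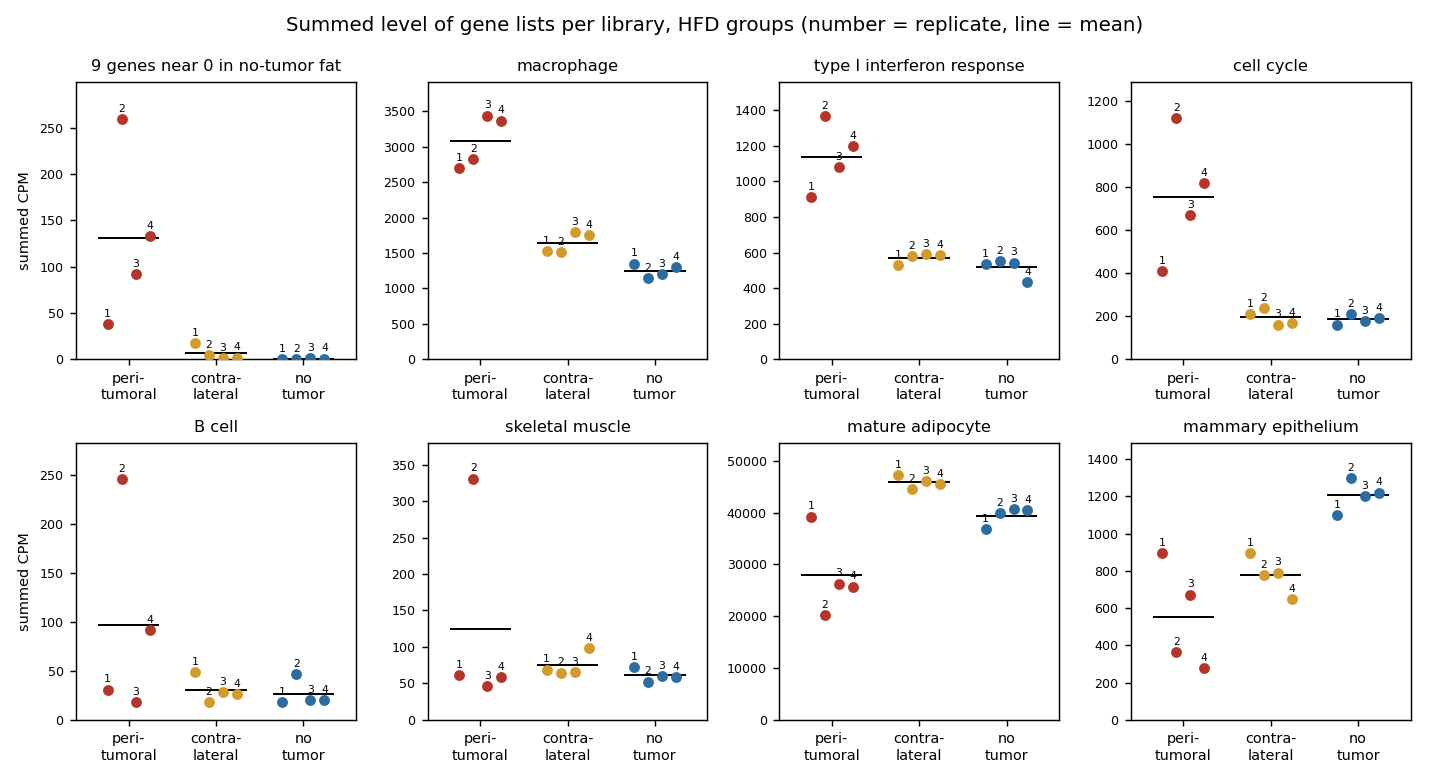
Summed CPM of the 9 genes near 0 in tumor-free fat and of 7 marker or response lists, 1 point per library, in HFD peritumoral, HFD contralateral and HFD no tumor fat (4 libraries each, numbers are replicates). Macrophage, interferon and cell cycle sums of the 4 peritumoral libraries lie above all other libraries, while B cell and skeletal muscle sums stand out in peritumoral replicate 2.

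Of 15773 genes tested, 6455 (40.9%) were called at an adjusted p under 0.05 by edgeR's quasi-likelihood test with Benjamini-Hochberg adjustment, which gives every adjusted p here. In HFD peritumoral fat 3632 genes (23% of those tested) rose and 2823 (17.9%) fell relative to HFD no tumor fat. The called changes were asymmetric in size: 352 rose and 34 fell by more than 4-fold, and 131 rose and 2 fell by more than 8-fold. The median over all tested genes was a log2 fold change of -0.01. Without peritumoral replicates 2 and 4, 4509 genes were called, 2740 higher and 1769 lower.

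**Figure D2:**
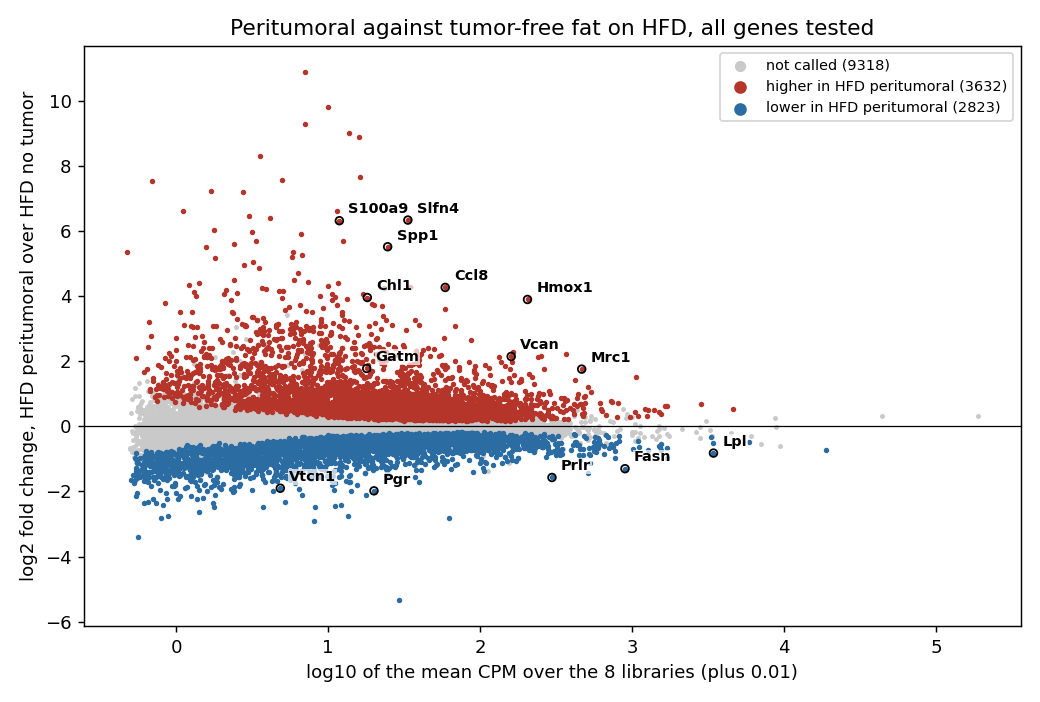
Log2 fold change of HFD peritumoral over HFD no tumor fat (y axis) against mean CPM on a log scale (x axis) for the 15773 genes tested, with called genes coloured and 14 genes labelled. The 3632 genes that rose reach larger changes than the 2823 that fell, with Slfn4 at 6.34 and Vtcn1 at -1.90.

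The gene with the lowest adjusted p was Chl1, a neural cell adhesion molecule of the immunoglobulin superfamily (mm10, chr6:103510876-103733035, plus strand). It was at 33.8, 44, 30.2 and 27.8 CPM in HFD peritumoral fat, against 1.96, 2.29, 2.63 and 1.88 CPM in HFD no tumor fat. The groups did not overlap, and Chl1 rose by 3.96 ± 0.18 (log2 fold change ± SE, adjusted p = 1.24e-05), 15.6-fold. It stayed low in HFD contralateral fat, at 1.19 to 2.12 CPM. Versican (Vcan, chr13:89655312-89742509, minus strand), a large matrix proteoglycan that binds hyaluronan, was at 251, 280, 266 and 246 CPM in HFD peritumoral fat, against 71.5, 51, 57.6 and 56.4 CPM in HFD no tumor fat. It rose by 2.15 ± 0.11 (adjusted p = 1.44e-05), with no overlap between the groups. Slfn4, a Schlafen gene of myeloid cells, was at 40.8, 84.4, 84.8 and 54.3 CPM in HFD peritumoral fat, against 1.25, 0.446, 0.856 and 0.707 CPM in HFD no tumor fat. Its log2 fold change was 6.34 ± 0.34 (adjusted p = 1.44e-05). HFD contralateral fat lay between them at 3.26 to 6.47 CPM. Schlafen genes have close copies, which the counting could split between them.

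Of the other 7 leading genes that rose, the scavenger receptor Msr1, which takes up modified lipoproteins, was at 52.3, 79.8, 67.2 and 85.3 CPM in HFD peritumoral fat, against 9.61, 7.77, 7.77 and 7.95 CPM in HFD no tumor fat (log2 fold change 3.12 ± 0.16). Padi4, which citrullinates histones in neutrophils, rose by 2.99 and Ms4a6c, a membrane gene of monocytes, by 2.44. The chemokine Ccl8, a ligand that draws monocytes, was at 72.2, 102, 135 and 137 CPM in HFD peritumoral fat, against 6.7, 5.03, 5.02 and 6.65 CPM in HFD no tumor fat (log2 fold change 4.27 ± 0.23, adjusted p = 1.44e-05). Its neighbour Ccl12 rose by 4.45, Cd68, a macrophage lysosomal glycoprotein, by 1.90, and Cmah, which makes the sialic acid Neu5Gc, by 1.35. The rule that chose these genes required groups that did not overlap, which over all genes tested was so for 39.6% (21.3% with peritumoral fat higher).

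**Figure D3:**
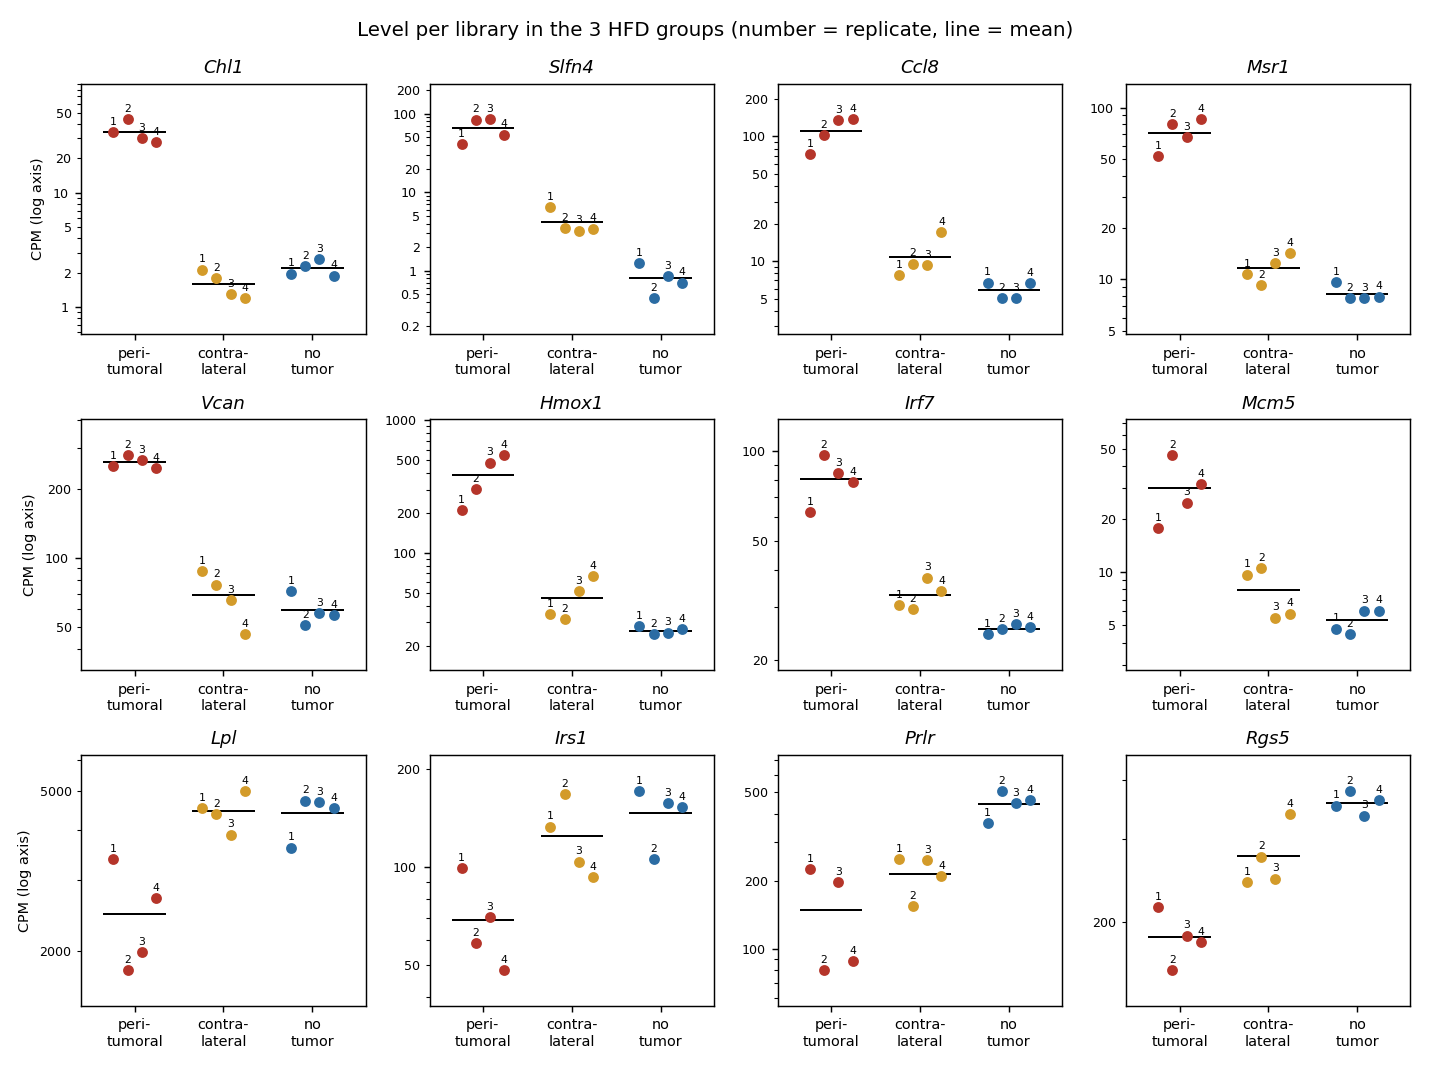
CPM on a log scale of 12 genes in each HFD library, from left to right peritumoral, contralateral and no tumor fat (4 libraries each). Chl1, Slfn4, Ccl8, Msr1, Vcan, Hmox1, Irf7 and Mcm5 are higher, and Lpl, Irs1, Prlr and Rgs5 lower, in all 4 peritumoral than in all 4 no tumor libraries.

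The leading genes that fell did so by less, between 1.13 and 1.90 on the log2 scale. Vtcn1, the B7-H4 ligand that restrains T cells and is found in mammary epithelium, was at 1.86, 1.67, 3.08 and 1.51 CPM in HFD peritumoral fat, against 7.53, 7.39, 7.09 and 8.54 CPM in HFD no tumor fat (log2 fold change -1.90 ± 0.22, adjusted p = 0.000301). Fam160a1 was at 12.5, 13, 14 and 13.1 CPM in HFD peritumoral fat, against 28.1, 30, 32.2 and 35.5 CPM in HFD no tumor fat (log2 fold change -1.24 ± 0.09, adjusted p = 3.63e-05), the lowest adjusted p of these leading genes. In both genes every peritumoral library was below every no tumor library. Gucy1b1, a subunit of the nitric oxide receptor guanylate cyclase, fell by 1.19 and Kcnj8, a potassium channel subunit of pericytes and smooth muscle, also fell by 1.19. The transcription factor Dach1 fell by 1.24 and Eml5, a microtubule-associated protein, by 1.27. Pitpnm3, Mtss1l and Lzts1 fell by 1.33, 1.13 and 1.14. Gnas, the stimulatory G protein alpha subunit, fell by 1.25, but several transcripts overlap at its locus and the strand used in counting is not given.

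Macrophage markers rose almost as a block. Of 16 measured general macrophage markers 15 rose and none fell, with a median log2 fold change of 1.51 (all genes: 23% rose, median -0.01), and the count was again 15 without replicates 2 and 4. Itgam, the integrin CD11b of myeloid cells, was at 159, 186, 182 and 181 CPM in HFD peritumoral fat, against 62.9, 45.3, 46.9 and 52 CPM in HFD no tumor fat (log2 fold change 1.79 ± 0.11, adjusted p = 1.77e-05). The efferocytosis receptor Mertk was the 1 member not called, at 59 ± 16.7 CPM in peritumoral fat and 52.2 ± 6.09 CPM in no tumor fat. Summed over the list, the level was 2700, 2820, 3440 and 3370 CPM in HFD peritumoral fat, 1510 to 1790 CPM in HFD contralateral fat and 1140 to 1350 CPM in HFD no tumor fat, so the 3 groups did not overlap. In this sum replicate 2 was not the highest library.

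Markers of tissue-resident macrophages rose with them, 13 of 14, with a median of 1.55 and the same count without replicates 2 and 4. The mannose receptor Mrc1 was at 595, 555, 916 and 805 CPM in HFD peritumoral fat, against 247, 182, 207 and 218 CPM in HFD no tumor fat (log2 fold change 1.76 ± 0.17, adjusted p = 0.000133). Cbr2, a carbonyl reductase of resident macrophages, rose by 1.72. Retnla, a marker of alternative activation, was the 1 member not called, at 172 ± 79.5 CPM in peritumoral fat and 285 ± 29 CPM in no tumor fat. It was the 1 member with a log2 fold change below 0 (-0.72), and DESeq2 and limma voom each called 1 member lower. Lyve1, listed here for resident macrophages, is also a marker of lymphatic endothelium. Of 16 genes of lipid-associated macrophages, the cells that line dying adipocytes, 11 rose and 1 fell, with a median of 0.69. Spp1, the secreted glycoprotein osteopontin, was at 22.2, 75.9, 37.8 and 57 CPM in HFD peritumoral fat, against 0.83, 1.4, 1.53 and 0.471 CPM in HFD no tumor fat (log2 fold change 5.52 ± 0.46, adjusted p = 5.94e-05), 46-fold. Acp5, an acid phosphatase of osteoclasts and macrophages, fell by 0.43 (adjusted p = 0.0321). Without replicates 2 and 4 the list count was 8 higher and 1 lower, and 7 rose without no tumor replicate 3 or peritumoral replicate 4. Lysosomal genes, which adipocytes and stroma also express, rose in 15 of 19 members with a median of 0.34, led by Ctsz at 0.99 and Laptm5 at 1.25.

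Neutrophil markers and inflammatory cytokines rose by large factors. Of 10 neutrophil markers tested 8 rose and none fell, with a median of 3.56, and 8 again without replicates 2 and 4. The list holds 14 markers, of which 4 were tested on Chow. Members near 0 in no tumor fat, such as S100a9, passed the low-count filter only through peritumoral fat. The share and the median are therefore set in part by that filter. S100a9, a calcium-binding alarmin of neutrophils and monocytes, was at 11.1, 17.9, 35 and 29.7 CPM in HFD peritumoral fat, against 0.119, 0.382, 0.55 and 0.118 CPM in HFD no tumor fat (log2 fold change 6.32 ± 0.52, adjusted p = 5.94e-05). Csf3r, the receptor for granulocyte colony-stimulating factor, was at 14.3 CPM in replicate 1 and averaged 22.1 ± 5.21 CPM in peritumoral fat and 2.72 ± 0.525 CPM in no tumor fat (log2 fold change 3.03 ± 0.22). The neutrophil surface marker Ly6g and the granule genes Mpo, Camp and Ngp did not pass the low-count filter. Lcn2 and Ltf, which mammary epithelium and adipocytes also make, passed it and were not called.

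Of 24 cytokine and chemokine genes tested 19 rose and 1 fell, with a median of 3.0, and 19 and 1 again without replicates 2 and 4. The list holds 26, and here too members near 0 in no tumor fat, such as Il1b, passed the filter only through peritumoral fat. Named after their values were seen, the monocyte ligand Ccl2 averaged 65.3 ± 25.5 CPM in HFD peritumoral fat and 3.41 ± 0.557 CPM in HFD no tumor fat (log2 fold change 4.27 ± 0.29), and Il1b averaged 24.6 ± 10.7 CPM in peritumoral fat and 0.475 ± 0.202 CPM in no tumor fat (5.70 ± 0.43). The member that fell was Cx3cl1, fractalkine, by 0.62 (adjusted p = 0.0215). The constitutive stromal chemokines Cxcl12 and Cxcl14 were not called, with log2 fold changes of -0.06 and -0.03. The receptors C5ar1 and C3ar1 of the complement fragments rose by 2.21 and 1.82. The complement list as a whole gave 5 higher (35.7%, against 23% of all genes) and none lower of 14, but 10 higher without replicates 2 and 4. Among mast cell markers, Hdc, which makes histamine in mast cells and other myeloid cells, was at 13.4, 17.5, 20.9 and 13.8 CPM in HFD peritumoral fat, against 2.49, 2.68, 3.3 and 2.47 CPM in HFD no tumor fat (log2 fold change 2.59 ± 0.18). The proteases Cpa3, Mcpt4, Cma1 and Tpsb2, which define mast cells, were not called, with log2 fold changes of 0.09 to 0.48, and Kit, which mammary epithelium also expresses, fell by 1.07.

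All 22 type I interferon response genes tested rose, with a median log2 fold change of 1.61. Type I interferons are antiviral cytokines, and many of the genes they induce carry a GAAA repeat in their promoters. The regulator Irf7 was at 62.6, 96.7, 84.5 and 78.5 CPM in HFD peritumoral fat, against 24.4, 25.3, 26.3 and 25.8 CPM in HFD no tumor fat (log2 fold change 1.68 ± 0.12, adjusted p = 3.25e-05). Oas2, an oligoadenylate synthase that senses double-stranded RNA, was at 39.7, 51.5, 49 and 59.1 CPM in peritumoral fat, against 15.8, 15.2, 15.5 and 12.1 CPM in no tumor fat (1.78 ± 0.14). Every peritumoral library was above every no tumor library in both genes. Chosen after the values were seen, Oas3 was at 20.1, 53.6, 31.5 and 39.3 CPM in HFD peritumoral fat, against 3.68, 2.55, 2.45 and 2.06 CPM in HFD no tumor fat (3.76 ± 0.31), the steepest of the list. Isg15, a ubiquitin-like modifier, was at 6.52, 13.9, 9.29 and 10.5 CPM in peritumoral fat, against 2.02, 1.59, 1.47 and 2.18 CPM in no tumor fat (2.48 ± 0.25). The smallest rise was that of Ifih1, a cytosolic RNA sensor, at 0.48. Without replicates 2 and 4, 21 of 22 were called and the median was 1.38. Oas genes lie side by side as close copies, which the counting could split.

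The promoters of 3 of these genes carry GAAA, then any 2 bases, then GAAA again, shown in capitals, in a window of 250 bases before to 50 after the annotated start (RefSeq, GRCm38.p6). They are printed 5′ to 3′ on the gene's own strand because members of the list moved together. Oas3 lies at chr5:120777610-120777909, Oas1a at chr5:120907476-120907775 and Isg15 at chr4:156200769-156201068, all on the minus strand. The match begins 75 bases before the start in Oas3, 20 and 14 bases before it in Oas1a, and 78, 72 and 66 bases before it in Isg15.
Oas3: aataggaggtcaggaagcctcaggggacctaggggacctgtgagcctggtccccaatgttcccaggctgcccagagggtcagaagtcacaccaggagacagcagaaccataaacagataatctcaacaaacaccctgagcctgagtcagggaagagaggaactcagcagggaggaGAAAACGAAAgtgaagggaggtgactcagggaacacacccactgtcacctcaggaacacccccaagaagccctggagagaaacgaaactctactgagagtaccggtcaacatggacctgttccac
Oas1a: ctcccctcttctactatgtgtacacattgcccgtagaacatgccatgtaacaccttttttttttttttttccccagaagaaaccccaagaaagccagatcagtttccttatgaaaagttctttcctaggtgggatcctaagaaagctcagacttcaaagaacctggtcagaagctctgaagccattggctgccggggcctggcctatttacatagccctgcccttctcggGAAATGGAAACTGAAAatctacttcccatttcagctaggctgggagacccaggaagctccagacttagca
Isg15: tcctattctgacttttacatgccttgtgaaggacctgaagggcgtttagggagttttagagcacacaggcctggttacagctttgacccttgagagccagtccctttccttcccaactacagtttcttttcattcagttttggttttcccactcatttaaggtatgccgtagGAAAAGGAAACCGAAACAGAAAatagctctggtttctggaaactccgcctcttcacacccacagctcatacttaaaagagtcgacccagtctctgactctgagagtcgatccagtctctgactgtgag
Counted on both strands, with matches allowed to overlap, 10 of the 16 interferon genes with a listed promoter held it (62.5%). Of all 27025 genes with a listed promoter 1079 did (3.99%). The letters were chosen after the data were seen, and a match is a description of sequence, not of binding.

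Of 15 interferon-gamma responsive genes 4 rose and 1 fell, with a median of 0.38, a share that rose close to the 23% of all genes. Only 1 rose without peritumoral replicates 2 and 4, and 2 without no tumor replicate 1 or 4 or without peritumoral replicate 4. The autophagy GTPase Irgm1 rose by 1.14, while Cxcl11, a ligand of the chemokine receptor CXCR3 on T cells, fell to 1.34 ± 0.457 CPM in HFD peritumoral fat, against 3.01 ± 0.845 CPM in HFD no tumor fat (log2 fold change -1.15 ± 0.28, adjusted p = 0.0106). Of 16 genes for presentation by MHC class I, 8 rose and none fell, with Psmb8, an immunoproteasome subunit, at 0.71, but 5 rose without no tumor replicate 1. Of 14 MHC class II and dendritic cell genes none rose and H2-Ab1, a class II chain, fell by 0.49 (adjusted p = 0.0447). Without peritumoral replicate 1, 4 of them fell, and without peritumoral replicate 3, 3 rose. MHC genes are close copies of each other.

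The calls of lymphocyte markers depended on single libraries. Of 16 T and NK cell markers 2 rose (12.5%, median of 1.08), below the 23% of all genes. Of 12 B cell markers 3 rose (25%, median 2.30), near that share. Without peritumoral replicates 2 and 4 none of either list was called and the medians were 0.06 and -0.03. With 1 library left out, 0 to 6 of the T and NK cell markers and 0 to 10 of the B cell markers rose, the most without no tumor replicate 2 and without peritumoral replicate 3. The antigen receptor component Cd79a averaged 5.04 ± 6.28 CPM in HFD peritumoral fat and 0.588 ± 0.5 CPM in HFD no tumor fat, and the groups overlapped. Of 10 checkpoint and suppressive genes tested 6 rose (60%) and 2 fell (20%, near the 17.9% of all genes). Lgals9, galectin-9, a ligand of the inhibitory receptor TIM-3 on T cells, rose by 0.76 ± 0.07 (adjusted p = 6.1e-05). Lag3, an inhibitory receptor of T cells, averaged 1.41 ± 0.322 CPM in peritumoral fat and 2.59 ± 0.361 CPM in no tumor fat and fell by 0.86. Of the genes of lymph node stroma and high endothelium, only Cxcl13 and the endothelial adhesion molecule Sele were tested, and both rose (2.96 and 4.20). Glycam1, Ccl21a, Ccl19, Madcam1, Chst4 and Fut7 did not pass the low-count filter. The whole list summed to 0.942 to 2.36 CPM in HFD no tumor fat and 5.06 to 37.9 CPM in HFD peritumoral fat. Members so low in no tumor fat may pass the filter only through peritumoral fat, which can set the share that rose.

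All 25 cell cycle genes tested rose, with a median of 2.48, and 24 of them (median 1.90) without replicates 2 and 4. Mcm5, a subunit of the replicative helicase, was at 17.8, 45.8, 24.7 and 31.5 CPM in HFD peritumoral fat, against 4.8, 4.46, 6.06 and 6.06 CPM in HFD no tumor fat (log2 fold change 2.50 ± 0.27, adjusted p = 0.000238). Rrm2, a subunit of ribonucleotide reductase, was at 7.87, 17.4, 11.5 and 13.1 CPM in peritumoral fat, against 2.31, 2.42, 2.57 and 3.12 CPM in no tumor fat (2.26 ± 0.24, adjusted p = 0.000172). No peritumoral library overlapped with a no tumor library in either gene. The summed level was 407, 1120, 667 and 818 CPM in HFD peritumoral fat, 160 to 238 CPM in contralateral fat and 160 to 210 CPM in no tumor fat. Its order over the peritumoral libraries was that of the sum of the 9 near-silent genes (259 CPM in replicate 2, 37.6 CPM in replicate 1). It was not the order of each of those genes, and the part of one sum in the other was not tested. The replication genes Mcm7, Pcna, Mcm4 and Tyms changed least, by 0.67 to 1.07, and the mitotic genes Bub1, Ccnb1, Top2a and Birc5 most, by 3.07 to 4.31. The promoter of Rrm2 (chr12:24708004-24708303, plus strand) holds the letters CCAAT, the core recognised by NF-Y, in capitals, 50 bases before the start.
Rrm2: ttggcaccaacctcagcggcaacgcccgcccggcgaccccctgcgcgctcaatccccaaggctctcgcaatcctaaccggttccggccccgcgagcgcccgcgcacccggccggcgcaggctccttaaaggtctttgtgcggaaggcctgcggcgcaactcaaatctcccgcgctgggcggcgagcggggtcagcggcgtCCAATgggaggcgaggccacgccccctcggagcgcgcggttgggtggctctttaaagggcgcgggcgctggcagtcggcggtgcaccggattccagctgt
Of 21 cell cycle genes with a listed promoter, 19 held CCAAT on either strand (90.5%), against 11096 of all 27025 genes with one (41.1%).

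Matrix genes changed in both directions. Of 20 collagens 7 rose (35%, against 23% of all genes) and 5 fell (25%, against 17.9% of all genes), with a median of -0.08. There 3 fell without no tumor replicate 3 or 4 and 2 without peritumoral replicates 2 and 4. Col12a1, which binds to the surface of collagen fibrils, was at 154, 230, 253 and 234 CPM in HFD peritumoral fat, against 61.7, 52, 53.6 and 55.1 CPM in HFD no tumor fat (log2 fold change 1.98 ± 0.15, adjusted p = 3.76e-05). The fibrillar collagens Col1a1, Col1a2 and Col3a1, named after their values were seen, rose by 0.54, 0.50 and 0.52. The basement membrane collagens Col4a2 and Col15a1 fell by 0.45 and 0.88, and Col4a1 was not called at -0.22. Of 22 other matrix proteins and crosslinkers 12 rose and none fell, among them Cthrc1, a secreted protein of activated fibroblasts, at 9.39, 13.7, 13.4 and 12.7 CPM in HFD peritumoral fat, against 1.54, 2.1, 1.47 and 1.41 CPM in HFD no tumor fat (2.92 ± 0.19, adjusted p = 2.08e-05). Of 19 proteases and inhibitors 11 rose and 2 fell. The metalloproteinase Mmp19 rose by 1.12, and the inhibitor Timp3 fell by 0.88. Another inhibitor, Timp1, averaged 44.1 ± 20.2 CPM in peritumoral fat and 2.31 ± 0.813 CPM in no tumor fat (4.26 ± 0.36), a gene named after its values were seen. Of 18 stromal progenitor and fibroblast markers 5 rose (27.8%) and 2 fell (11.1%), against 23% and 17.9% of all genes. The defining receptor Pdgfra was not called (0.11 ± 0.12). Without peritumoral replicate 1, 3 rose and 5 fell, and 3 rose without peritumoral replicate 3 or any of no tumor replicates 2 to 4. Ly6a, the progenitor antigen Sca-1, rose by 0.92 ± 0.08.

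Adipocyte genes fell, in a number that depended on single libraries. Of 20 mature adipocyte markers 10 fell and none rose, with a median of -0.60, but without replicates 2 and 4 only 3 fell and 1 rose. Without peritumoral replicate 1, 18 fell, and 4 or 5 fell without peritumoral replicate 3 or any of no tumor replicates 2 to 4. Lpl, the lipase that frees fatty acids from lipoproteins, was at 3380, 1790, 1980 and 2710 CPM in HFD peritumoral fat, against 3620, 4740, 4710 and 4550 CPM in HFD no tumor fat (log2 fold change -0.82 ± 0.20, adjusted p = 0.0109). Peritumoral replicate 1 came close to no tumor replicate 1, with no overlap. The master regulator Cebpa fell by 0.80 ± 0.20 (adjusted p = 0.011). Adiponectin (Adipoq), an adipocyte hormone, was not called, at 1570 ± 436 CPM in peritumoral fat and 1950 ± 148 CPM in no tumor fat. The summed level was 39200, 20200, 26300 and 25700 CPM in HFD peritumoral fat, 44500 to 47200 CPM in contralateral fat and 36800 to 40600 CPM in no tumor fat, so peritumoral replicate 1 lay within the no tumor range. Of 9 genes that follow fat cell enlargement 5 fell and none rose, including Cav1, the caveolar coat protein, by 0.71. Leptin (Lep) fell by 0.53.

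Genes of lipid storage and use also fell. Of 16 fatty acid synthesis genes 8 fell and none rose, 4 without replicates 2 and 4 and 5 without no tumor replicate 3 or 4. Fasn, fatty acid synthase, was at 729, 546, 309 and 479 CPM in HFD peritumoral fat, against 799, 1410, 1480 and 1450 CPM in HFD no tumor fat (log2 fold change -1.30 ± 0.27, adjusted p = 0.00474). No tumor replicate 1 stood well below its own group. Mlxipl, the carbohydrate-sensing activator of these genes, fell by 0.93. Of 12 triglyceride synthesis genes 8 fell and 1 rose, but without replicates 2 and 4 only 1 fell, and 4 or 5 fell without peritumoral replicate 3 or any of no tumor replicates 2 to 4. Dgat2, which adds the last acyl chain, fell by 1.13, and Lpin2 rose by 0.44. Of 15 genes of lipolysis and its receptors 8 fell and 2 rose, with Ptger3, an anti-lipolytic prostaglandin receptor, at -0.98 and Hcar2, an anti-lipolytic receptor also made by macrophages and neutrophils, at 0.54. There 5 fell without peritumoral replicates 2 and 4, without peritumoral replicate 3 or without any of no tumor replicates 2 to 4. Of 16 fatty acid oxidation genes 8 fell and none rose, with Acadvl at -0.53, and 4 fell when any 1 of those 4 libraries was left out (5 without peritumoral replicates 2 and 4). Of 16 enzymes of branched-chain amino acid breakdown 10 fell, with a median of -0.48, but 5 without no tumor replicate 3 and 4 without peritumoral replicates 2 and 4. Among 8 thermogenic fat genes tested 4 fell and 1 rose, while Ucp1 did not pass the low-count filter. Ppargc1a, the coactivator of mitochondrial biogenesis, fell by 1.19, and Dio2, which activates thyroid hormone, rose by 1.52 with overlapping groups. In cholesterol synthesis 6 of 21 genes were higher (28.6%, near the 23% of all genes), with a list median of 0.13. In that list 1 was lower (4.76%, against 17.9% of all genes), Hmgcs1 at -0.50. Without any 1 of the no tumor libraries 2 or 3 were higher, and without peritumoral replicates 2 and 4, 4 were higher and 3 lower.

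Irs1, the adaptor that relays insulin receptor signals, was at 99.1, 58.5, 70.1 and 48.4 CPM in HFD peritumoral fat, against 171, 106, 157 and 153 CPM in HFD no tumor fat. It did not overlap between the groups and fell by 1.08 ± 0.22 (adjusted p = 0.00417), the largest change of an insulin response list in which 6 of 13 genes fell and none rose. Without peritumoral replicate 1, 11 of them fell, and 2 or 3 fell without peritumoral replicate 3 or any of no tumor replicates 2 to 4 (3 without peritumoral replicates 2 and 4). Pde3b, through which insulin restrains lipolysis, fell by 0.79. The insulin-sensitive glucose carrier Slc2a4 was not called, at 62.9 ± 26.8 CPM in peritumoral fat and 98.9 ± 8.44 CPM in no tumor fat.

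Glycolysis and hypoxia genes rose in 15 of 23 members and fell in 4, with a median of 0.54, though without replicates 2 and 4 the counts were 7 and 4. They were 9 and 2 without no tumor replicate 2 and 8 and 2 without no tumor replicate 3, 9 rose without peritumoral replicate 4, and 2 fell without peritumoral replicate 3. Hk3, the hexokinase of myeloid cells, rose by 2.01 ± 0.17, and Pfkfb3, a regulator of glycolytic flux, fell by 0.87. Slc2a1, the ubiquitous glucose carrier, and Slc16a3, a lactate exporter, rose by 2.33 and 3.74, and were named after their values were seen. The hypoxia-induced genes Vegfa and Car9 were not called. Pgk1 and Pgam1 have processed copies in the genome, and their counts are low. Of 28 nuclear genes of oxidative phosphorylation none rose and 4 fell (14.3%, against 17.9% of all genes), led by Cox5b at -0.59. None fell without replicates 2 and 4. The count rested on peritumoral replicate 1: without it 18 fell (14 by limma voom with all libraries), and 1 or 2 fell without any other single library. Of 7 genes of the mitochondrial genome, mt-Cytb alone was called and fell by 0.32.

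Creatine genes moved in both directions. Of 5 tested 1 rose (20%, against 23% of all genes) and 2 fell (40%, against 17.9%). Against HFD contralateral fat 1 of 5 rose and none fell. Gatm, which makes the creatine precursor guanidinoacetate from arginine and glycine, was at 12.5, 37.2, 24.6 and 36.6 CPM in HFD peritumoral fat, against 9.78, 5.93, 8.81 and 8.13 CPM in HFD no tumor fat. All 4 peritumoral libraries were above the no tumor ones, replicate 1 by little, and Gatm rose by 1.78 ± 0.32 (adjusted p = 0.00246), 3.42-fold. HFD contralateral fat was at 7.14 to 8.79 CPM. Gamt, which methylates that precursor into creatine, was at 9.89, 9.31, 6.82 and 9.32 CPM in HFD peritumoral fat, against 10.8, 11.8, 13.3 and 14.9 CPM in HFD no tumor fat and fell by 0.51 ± 0.15 (adjusted p = 0.0211). The mitochondrial kinase Ckmt1 fell by 1.31 ± 0.42 (adjusted p = 0.0317) with overlapping groups. The transporter Slc6a8, through which cells take up creatine, was at 31.4 ± 7.14 CPM in peritumoral fat and 26.2 ± 1.6 CPM in no tumor fat and was not called (0.27 ± 0.14, adjusted p = 0.154). The cytosolic kinase Ckb had 17 ± 3.27 CPM in peritumoral fat and 17.1 ± 1.52 CPM in no tumor fat (0.00 ± 0.14, adjusted p = 0.985). The muscle kinase Ckm did not pass the low-count filter and reached 10.6 CPM in peritumoral replicate 2, the library with the highest skeletal muscle sum, against at most 0.241 CPM in the other peritumoral libraries and 0.0637 CPM in no tumor fat.

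Vessel wall and epithelial genes fell. Of 15 blood endothelium markers 10 fell and none rose, with a median of -0.49, and 8 fell and 1 rose without replicates 2 and 4. Nos3, the endothelial nitric oxide synthase, fell by 0.91 and the guidance receptor Robo4 by 0.75, while the pan-endothelial Pecam1 was not called (-0.26 ± 0.12). Of 11 smooth muscle and pericyte genes 5 fell and none rose, and 5 again without replicates 2 and 4. The pericyte regulator Rgs5 was at 215, 158, 187 and 181 CPM in HFD peritumoral fat, against 353, 379, 336 and 362 CPM in HFD no tumor fat (log2 fold change -0.94 ± 0.10, adjusted p = 0.000194). Myh11, smooth muscle myosin, fell by 1.28 with no overlap. Of 14 lymphatic endothelium and vascular growth factor genes 1 rose and 3 fell (21.4%, near the 17.9% of all genes). Pdpn, podoplanin, which fibroblasts and macrophages also carry, rose by 1.49 and the lymphatic receptor Flt4 fell by 0.58.

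Of 19 mammary epithelium markers 12 fell and none rose, with a median of -1.03, and 12 again (median -0.60) without replicates 2 and 4. The count fell to 5 without peritumoral replicate 2, to 6 without no tumor replicate 1 or 3 and to 7 without no tumor replicate 2. The progesterone receptor Pgr was at 10.3, 7.36, 10 and 4.48 CPM in HFD peritumoral fat, against 35.9, 17.6, 24.3 and 50.1 CPM in HFD no tumor fat (log2 fold change -1.98 ± 0.34, adjusted p = 0.0021). Trp63, the transcription factor of basal cells, fell by 1.38. The prolactin receptor Prlr, named after its values were seen, was at 228, 80.4, 199 and 87.9 CPM in peritumoral fat, against 365, 507, 447 and 461 CPM in no tumor fat (-1.57 ± 0.32). Neither gene overlapped between the groups. The summed level was 896, 362, 672 and 279 CPM in HFD peritumoral fat, 650 to 896 CPM in contralateral fat and 1100 to 1300 CPM in no tumor fat. Of 3 milk protein genes tested, Csn3 and Btn1a1 fell by 1.22 and 1.54. Of 11 Schwann cell genes 7 fell and 2 rose, with S100b, a calcium-binding protein of Schwann cells, and the myelin protein Prx among those that fell, by 0.82 and 0.78.

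Among 15 clock genes 8 fell (53.3%) and 3 rose (20%), against 17.9% and 23% of all genes. Per3 was at 71.5, 32.9, 55.8 and 37.9 CPM in HFD peritumoral fat, against 126, 127, 138 and 132 CPM in HFD no tumor fat (log2 fold change -1.39 ± 0.21, adjusted p = 0.00111). The repressor Nfil3 rose by 1.55, and Arntl, the activator BMAL1, by 1.0. Times of dissection are not given. Of 18 NRF2 and antioxidant genes 6 rose (33.3%, against 23% of all genes) and 2 fell (11.1%, against 17.9%). Without peritumoral replicate 1, 5 fell. Hmox1, which breaks down heme, was at 211, 303, 478 and 544 CPM in HFD peritumoral fat, against 27.9, 24.4, 25.1 and 26.6 CPM in HFD no tumor fat (3.90 ± 0.29, adjusted p = 3.53e-05), while the canonical NRF2 target Nqo1 was not called (-0.37 ± 0.19). Hemoglobin and heme synthesis genes rose in all 5 members, by 0.60 to 1.05, and their sum was 400 to 663 CPM in peritumoral fat and 214 to 398 CPM in no tumor fat. Only 2 were called without no tumor replicate 1 or 2 or peritumoral replicate 3 or 4, and 3 without no tumor replicate 3 or without peritumoral replicates 2 and 4. Of 16 stress response genes 8 rose (50%, against 23% of all genes) and 2 fell (12.5%, against 17.9%). The chaperone Hspa5 was at 0.87 and the serine pathway enzyme Phgdh at -0.81. Cytosolic ribosomal protein genes rose in 19 of 23 members, with a median of 0.55, and many of them have processed copies. Of 14 immediate early genes 5 rose (35.7%, against 23% of all genes). Only 3 rose without no tumor replicate 1 or 2, any of peritumoral replicates 1 to 3, or peritumoral replicates 2 and 4. Of 12 glucocorticoid response genes 3 rose (25%) and 2 fell (16.7%), near the 23% and 17.9% of all genes. Of 31 growth factor and Wnt genes 6 rose (19.4%, against 23% of all genes) and 10 fell (32.3%, against 17.9%). The Wnt inhibitor Sfrp2 was at 1.23 and Wnt5a at -0.74. There 4 to 6 fell without no tumor replicate 1 or 3, peritumoral replicate 2, or peritumoral replicates 2 and 4. Of 7 nuclear noncoding RNAs 4 fell and 1 rose, with Malat1 at 4900 ± 383 CPM in peritumoral fat and 6910 ± 534 CPM in no tumor fat. None of the 7 skeletal muscle genes tested was called.

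**Figure D4:**
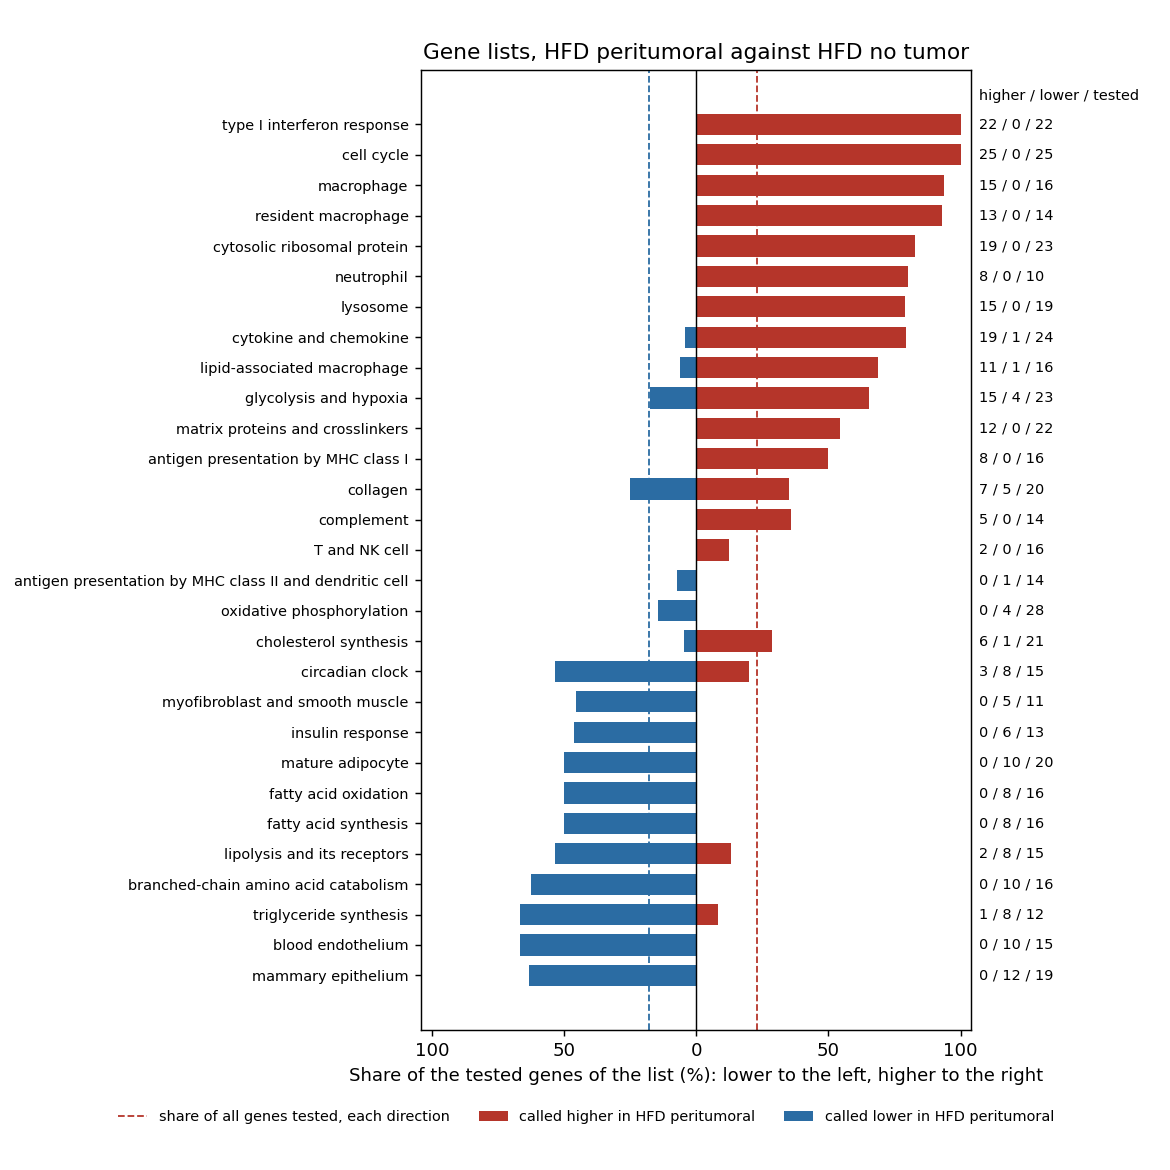
Percent of tested members of 29 gene lists that rose (right) or fell (left) in HFD peritumoral relative to HFD no tumor fat at an adjusted p under 0.05. Dashed lines mark the share of all tested genes, 23% higher and 17.9% lower, against which each bar is read.

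On Chow the same contrast called few genes. Of 15926 genes tested 21 (0.132%) passed, with 10 (0.0628%) higher and 11 (0.0691%) lower in Chow peritumoral fat, although 3007 had an unadjusted p under 0.05. The Chow peritumoral libraries were shallower, at 9130125 to 14460254 counts, and differed among themselves: the 9 near-silent genes summed to 0.757, 1.13, 31.7 and 65.5 CPM in replicates 1 to 4, against 0.133 to 0.382 CPM in Chow no tumor fat. Chl1 showed that split, at 5.16, 7.58, 50 and 55.2 CPM in Chow peritumoral fat, against 2.93, 3.16, 2.86 and 2.87 CPM in Chow no tumor fat (log2 fold change 3.34, adjusted p = 0.145), and its difference between diets was 0.60 (adjusted p = 0.675). Spp1 had 2.27, 1.56, 4.24 and 7.25 CPM in Chow peritumoral fat, against 0.764, 0.492, 0.465 and 0.784 CPM in Chow no tumor fat.

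The difference between the diets, tested as an interaction over 16744 genes, was called for 3456 (20.6%), with 1632 (9.75%) more positive and 1824 (10.9%) more negative on HFD. All 22 interferon genes were more positive on HFD, as were 13 of 16 macrophage, 18 of 23 ribosomal protein and 11 of 19 lysosomal genes, but 8 of 25 cell cycle genes and none of 20 adipocyte markers. Irf7 was at 53.7, 55.4, 71 and 62.1 CPM in Chow peritumoral fat, against 84.7, 34.6, 78.4 and 79.2 CPM in Chow no tumor fat (log2 fold change -0.16, adjusted p = 0.764). Thus 3 of the 4 Chow no tumor libraries lay within the range of HFD peritumoral fat, 62.6 to 96.7 CPM, and HFD no tumor fat was the low group. The interaction was 1.81 ± 0.30 (adjusted p = 0.00189). The sum of the interferon list in Chow no tumor fat was 1160, 591, 1020 and 1120 CPM, with replicate 2 apart from the others. The macrophage list summed to 1790, 1040, 1740 and 1640 CPM there, against 1140 to 1350 CPM in HFD no tumor fat. Its interaction thus also takes in a difference between the no tumor groups. Ribosomal protein genes summed to 2210 to 2590 CPM against 1940 to 2130 CPM, while lysosomal sums overlapped, at 3020 to 3340 CPM against 3230 to 3460 CPM.

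Endothelial and pericyte genes were more negative on HFD, 10 of 15 and 5 of 11. Rgs5 was at 218, 174, 207 and 208 CPM in Chow peritumoral fat, against 169, 196, 152 and 155 CPM in Chow no tumor fat, and its interaction was -1.26 ± 0.15 (adjusted p = 0.000846). Its HFD no tumor level, 336 to 379 CPM, was the highest of the groups compared. Per3 had 88.9 ± 14.5 CPM in Chow peritumoral fat and 91.9 ± 10 CPM in Chow no tumor fat (interaction -1.40, adjusted p = 0.00293). Kcna1, a potassium channel, fell by 1.38 on HFD and rose by 1.05 on Chow (adjusted p = 0.0446), with 26.1, 22.8, 19.5 and 15.2 CPM in Chow peritumoral fat, against 9.36, 9.27, 9.56 and 13.1 CPM in Chow no tumor fat. Gatm had 12.3 ± 2 CPM in Chow peritumoral fat and 8.2 ± 1.53 CPM in Chow no tumor fat (0.61, adjusted p = 0.106), and the difference between diets, 1.15 ± 0.39, had an adjusted p that rounded to 0.05, just under the threshold, and missed it under 16 of 24 alternatives.

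**Figure D5:**
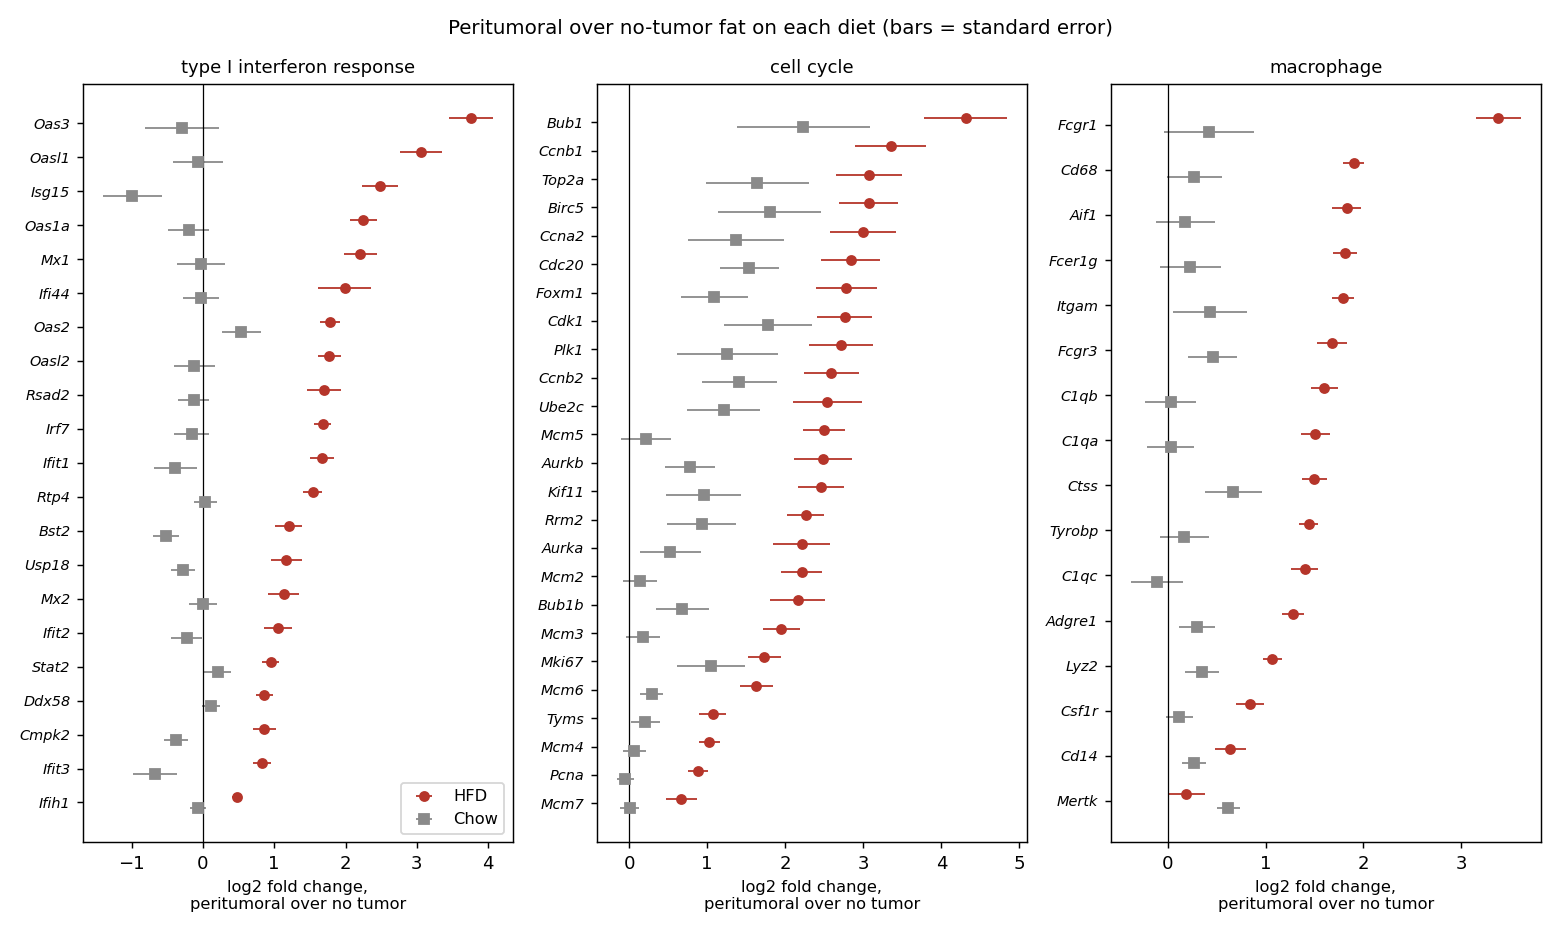
Log2 fold change ± SE of peritumoral over no tumor fat on HFD and on Chow for tested genes of the type I interferon, cell cycle and macrophage lists. On HFD all interferon and cell cycle genes shown lie above 0, with list medians of 1.61 and 2.48, and on Chow the medians are -0.13 and 0.94.

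Against HFD contralateral fat, which shares the peritumoral libraries with the main comparison, 4610 of 15627 genes (29.5%) were called, 2631 higher and 1979 lower. All 22 interferon genes, all 25 cell cycle genes and 15 of 16 macrophage markers rose in HFD peritumoral fat relative to HFD contralateral fat as well. Of the 20 adipocyte markers 15 fell in that comparison. The mammary epithelium list had none called of 19, beside 12 lower against no tumor fat, and Pgr, at 9.86 to 13.6 CPM in contralateral fat, was not called (-0.57, adjusted p = 0.0934). Of 15 endothelial markers 1 fell. Hdc had 6.83 to 7.63 CPM in HFD contralateral fat, between the peritumoral and the no tumor ranges.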

How the data were processed

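The authors deposited 1 table of raw read counts per gene (39017 genes, 24 libraries). The tools TopHat and DESeq and the build mm10 are named, with no versions, per the submitters' processing notes. Whether counting used strand is not stated there. Library totals ran from 14979723 to 18204747 counts in the 8 libraries compared. A reference table of gene IDs gave symbols for 37607 of the genes.

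Genes were tested on the deposited counts with edgeR 4.0.16 in R 4.3.3 (filterByExpr with a minimum count of 10, TMM, robust quasi-likelihood F-test, two-sided, Benjamini-Hochberg adjustment over all genes tested, threshold 0.05). The main fit held the 4 HFD peritumoral and 4 HFD no tumor libraries only, the Chow and the contralateral comparisons likewise held their own 8 libraries, and the interaction held 16. CPM in the text are counts scaled to TMM-adjusted library sizes over all 24 libraries, not per length, so levels are not compared between genes. Summed levels are sums of CPM over a list. Error is SD over 4 libraries for levels and SE for log2 fold changes.

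Alternatives were DESeq2 1.42.0, RLE size factors, limma 3.58.1 with voom and sample weights, other count filters, all 24 libraries in 1 fit, library sizes without mitochondrial ribosomal RNA, Gm42418 and Gm26917, a replicate block, and each library left out. Leaving out HFD peritumoral replicates 2 and 4 together was chosen after seeing the data. On simulated counts for the main comparison (15773 genes), edgeR recovered 70% of 100 planted 2-fold changes and 32% of 100 planted 1.5-fold changes, with 8 false calls. No other gene changed there, a far smaller share than the 40.9% called in the data. As the adjustment depends on that share, these rates hold for the simulated setting and do not measure recovery in the real comparison.

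Named genes were the 7 creatine genes, the 10 genes that rose and the 10 that fell with the lowest adjusted p (at least 1 on the log2 scale, 5 CPM or more on average where they were higher, no overlap, no placeholder symbol), up to 2 called members of each list with at least 2 CPM, and 5 genes in each direction of the interaction. A few genes are not reported here. Others are named as chosen after their values were seen or as members that missed the call. The members, the 51 lists and this rule were chosen with earlier results of these data known. Replicates of the 2 groups differed by more than sampling noise, so none was counted as a duplicate.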

Additional observations from a re-analysis of the deposited data

Results flagged for a closer look

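Of 127 named genes, 68 differed between the diets in the interaction test at an adjusted p under 0.05, 42 more positive and 26 more negative on HFD. Values are the log2 fold change of peritumoral over no tumor fat on HFD minus that on Chow. Genes of myeloid cells and of their entry into tissue were more positive on HFD, namely Slfn4 (5.33), Sele (3.3), Ccl8 (3.11), Ccl12 (2.98), Spp1 (2.95), Padi4 (2.88), Hdc (2.46), Csf3r (2.04), Ms4a6c (1.9), Cbr2 (1.82), Hk3 (1.75), Cd68 (1.61), C5ar1 (1.36), Itgam (1.34), Mrc1 (1.22), C3ar1 (1.19), Hcar2 (0.97), Laptm5 (0.88) and Ctsz (0.84). Genes of the interferon response, immunoproteasome and galectins were Irf7 (1.81), Oas2 (1.22), Lgals3bp (1.0), Irgm1 (0.98), Lgals9 (0.97) and Psmb8 (0.88). Genes of matrix and stroma were Cthrc1 (1.45), Pdpn (1.06), Ly6a (0.97) and Mmp19 (0.94). The others more positive on HFD were Mcm5 (2.27), Hbb-bt (1.56), Atf3 (1.5), Hbb-bs (1.32), Nfil3 (1.32), Tubb5 (1.23), Gatm (1.15), Cmah (1.02), Litaf (0.96), Car13 (0.95), Hspa5 (0.78), Rpl7 (0.57) and Cnp (0.49), among them the creatine enzyme Gatm, the hemoglobin chains, a ribosomal protein, a chaperone and tubulin.

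Genes of the vessel wall were more negative on HFD, namely Myh11 (-1.87), Rgs5 (-1.26), Gucy1b1 (-1.12), Robo4 (-1.1), Kcnj8 (-1.06) and Flt4 (-0.96). Genes found in mammary epithelium were Vtcn1 (-1.75), Trp63 (-1.55), Csn3 (-1.22) and Kit (-1.0). The others more negative on HFD were Kcna1 (-2.47), Ckmt1 (-1.82), Kalrn (-1.65), Cxcl11 (-1.63), Dach1 (-1.61), Per3 (-1.4), Pitpnm3 (-1.39), Eml5 (-1.34), Snhg11 (-1.25), Apex2 (-1.2), Fam160a1 (-1.07), Ppargc1a (-1.05), Timp3 (-0.98), Mdm4 (-0.8), Mlxipl (-0.74) and Klf9 (-0.59). Of these, the potassium channel Kcna1 was called in opposite directions on the 2 diets. Its call on Chow lay just under the threshold, in a comparison that called 1 to 78 genes with 1 library left out.

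Single libraries stood apart from the other 3 of their group in 18 of 260 groups tested, by Dixon's test at the 95% level, where chance gives about 1 in 20. HFD peritumoral replicate 2 stood apart for the muscle genes Ckm (10.6 CPM) and Ckmt2 (0.805 CPM) and for Flt4 (7.87 CPM), replicate 1 for Acadvl (36.4 CPM) and Csf3r (14.3 CPM), and replicate 3 for Ly6a (210.0 CPM). HFD no tumor replicate 1 stood apart for Msr1 (9.61 CPM), Cd68 (47.4 CPM), Lpl (3620 CPM), Fasn (799 CPM), Cox5a (12.8 CPM) and the mitochondrial ribosomal RNA share (20.54%). HFD no tumor replicate 2 stood apart for Gucy1b1 (15.3 CPM), Ckm (0.0637 CPM) and Cd79a (1.34 CPM), replicate 3 for Sfrp2 (21.2 CPM) and Kcna1 (8.56 CPM), and replicate 4 for Oas2 (12.1 CPM).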

How the results depend on the processing

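The main comparison called 6455 genes and kept within 1.5 times of that under every alternative run, at 6831 with DESeq2, 7535 with limma voom and 4802 to 8002 with 1 library left out. The highest count came without HFD peritumoral replicate 1. The share of calls that were higher was 56.3% and ranged from 50.8% (all 24 libraries in 1 fit) to 61% (without HFD no tumor replicate 2). The Chow comparison was unstable in number: 21 genes by edgeR, 651 by DESeq2, 222 without a count filter, 821 with all 24 libraries in 1 fit, 172 by limma voom, and 1 to 78 with 1 library left out. With all 24 libraries in 1 fit, 31.2% of the Chow calls were higher, against 47.6%. The interaction called 3456 genes, 5316 by limma voom and 2258 to 4785 with 1 library left out, the lowest without Chow peritumoral replicate 1. Its share of higher calls was 47.2%, and 58.6% without Chow peritumoral replicate 4. The comparison with HFD contralateral fat called 4610 genes, and 2750 to 6425 with 1 library left out. The causes were not tested. Differences in mitochondrial ribosomal RNA share (4.38 percentage points), Malat1 (-2011 CPM) and total count kept their direction, with ranges of 3.842 to 4.916 points, -2252 to -1842 CPM and 683300 to 1424000 counts.

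Replicate numbers did not meet the bar for pairing, a correlation over 0.1 in every pair: deviations of same-numbered libraries correlated at -0.03, 0.11, 0.06 and 0.07 between peritumoral and no tumor fat, where only number 2 matched best with itself, and at -0.08, 0.16, 0.29 and 0.43 between peritumoral and contralateral fat. With replicate number as a replicate block, 5821 genes were called in the main comparison, 21 on Chow, 3345 in the interaction and 5144 against contralateral fat.

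For genes named by the rule, 2043 of 2159 recomputed main values kept the call or its absence, 115 lost the call and 1 gained it. None changed direction where either fit called the gene. A change of sign in a gene called by neither fit was not counted, as for Ckb (log2 fold change -0.12 to 0.13). In the interaction 2893 of 3095 kept the call or its absence, and 108 lost and 94 gained the call. There too none changed direction where either fit called the gene. Cebpa, Fasn, Dgat2, Cav1, Col15a1, Pdgfrb, Lag3 and Cox5b lost the call only without peritumoral replicates 2 and 4 together among the left-out libraries. Others lost it without 1 library, among them Gamt, Ckmt1, Cd79a, Dio2, Hcar2, Cx3cl1, Acp5, H2-Ab1, mt-Cytb, Lpin2, Hmgcs1, Cox5a and Klf9. Counts near 0, as in the 9 near-silent genes, limit what depth can show in tumor-free fat.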

Other observations

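Some genes outside the lists also fell, and were named after their values were seen. Nrxn3, a neurexin of synapses, averaged 1.9 ± 0.935 CPM in HFD peritumoral fat and 14.3 ± 5.44 CPM in HFD no tumor fat (log2 fold change -2.90 ± 0.36, adjusted p = 0.000458 by edgeR's quasi-likelihood test). Dmbt1, a scavenger receptor protein of epithelia, averaged 15.4 ± 8.94 CPM in peritumoral fat and 109 ± 95.1 CPM in no tumor fat (-2.81 ± 0.63, adjusted p = 0.00712), with a spread in no tumor fat close to its mean. The predicted gene Gm23935 averaged 1.39 ± 0.793 CPM in peritumoral fat and 57 ± 20.3 CPM in no tumor fat (-5.33 ± 0.39, adjusted p = 3.53e-05), the steepest fall of any gene tested.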
